A study of Mus musculus with 19 samples.

Results

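The loci of Klf2, Klf4 and Klf5 were described through every deposited 5-hydroxymethylcytosine (5hmC) peak that overlapped 3 windows of the mouse genome on mm9. The windows were chr8:74820000-74865000 for Klf2, chr4:55465000-55560000 for Klf4 with its downstream enhancers, and chr14:99675000-99735000 for Klf5. They held 591 of the 1601520 peaks in the 18 deposited lists, with 113 at Klf2, 224 at Klf4 and 254 at Klf5. Genomic DNA came from mouse pre-iPSCs, cells stalled on the way from embryonic fibroblasts to induced pluripotent stem cells. Knockout cells (KO) had 1 library each of KO1 and KO2 at days 0, 2 and 10 (D0, D2 and D10), and wild-type cells (WT) had 3 libraries, A, B and C, on each of these days. The labels give no name for the deleted gene and do not say whether both KO lines lack the same one, nor whether either line is 1 clone. For V6.5 mouse embryonic stem cells (mESC) there was a single library at 0, at 12 and at 72 hours, so their values have no replicate check. All these libraries, D0 included, carry the same treatment label, ascorbic acid (50 µg/mL) with 2i, the GSK3 inhibitor CHIR-99021 and the MEK inhibitor PD-0325901. The remaining sample of the 19 is an untreated input with no list of its own.

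Klf2, Klf4 and Klf5 are Krüppel-like factors, zinc finger proteins that bind GC-rich DNA in promoters and enhancers. In mouse embryonic stem cells they act together to hold the self-renewing state, and Klf4 is among the factors used to turn fibroblasts into induced pluripotent stem cells. Klf2 is known as a downstream effector of MEK inhibition and of the naive state that 2i maintains, and Klf5 also acts in the early embryo and in epithelia. 5hmC is made from 5-methylcytosine by TET enzymes, whose activity ascorbic acid is known to raise, and it is often found at enhancers and gene bodies. The assay measures this mark and not the expression of the genes.

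RefSeq promoters (GRCm38.p6, the 250 bases before the start) were matched for Klf2 and Klf4, 2 of the 3 genes, and are shown because CpG is the dinucleotide on which 5hmC mostly forms. Capitals mark each CpG.
Klf2: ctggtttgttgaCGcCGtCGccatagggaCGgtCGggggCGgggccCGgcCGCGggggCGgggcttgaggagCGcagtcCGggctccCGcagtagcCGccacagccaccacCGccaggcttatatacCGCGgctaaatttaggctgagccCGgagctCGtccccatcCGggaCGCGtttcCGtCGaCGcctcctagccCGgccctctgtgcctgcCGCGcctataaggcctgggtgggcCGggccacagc
Klf4: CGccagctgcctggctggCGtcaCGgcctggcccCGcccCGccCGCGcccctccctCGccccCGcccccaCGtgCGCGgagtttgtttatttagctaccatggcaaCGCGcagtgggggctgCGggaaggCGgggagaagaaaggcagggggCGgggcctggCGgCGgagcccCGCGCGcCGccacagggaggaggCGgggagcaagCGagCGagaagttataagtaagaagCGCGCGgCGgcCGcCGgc
The Klf2 promoter holds 29 CpG and 2 GC boxes (GGGCGG or its reverse complement CCGCCC), and the Klf4 promoter holds 32 CpG and 4 GC boxes. Of 32851 mouse promoters of this length, 6.779% have as many CpG as Klf2 and 4.584% as many as Klf4, against a median of 6, and 32.742% hold a GC box. Where these promoters lie among the mm9 peaks was not determined, since the builds differ. In the GRCm38 gene order, Klf2 lies between Ap1m1 and Eps15l1, Klf4 between Rad23b and Actl7b, and Klf5 between Pibf1 and Klf12.

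The deposited lists differed in length, with 61125 to 138474 peaks in KO libraries, 55134 to 161004 in WT libraries and 24130 to 33576 in mESC libraries. The 2 KO lists at D10 (112303 and 111281) were longer than the 3 WT lists at D10 (86465, 77530 and 55134). Covered bp were therefore taken in each pre-iPSC library under its 55130 strongest peaks and scaled to a common total, while presence of a peak used the whole lists. The run names of the files follow 3 patterns, which are possible batches, 1 for WT A, 1 shared by WT B and KO1, and 1 shared by WT C and KO2. The run name of WT D0 C alone lacks the word input, and the sources used here do not say whether its peaks were called against the input. Its folds, -log10 p and choice of strongest peaks may therefore be on another footing than those of WT D0 A and B. At chr8:74827552-74827969, for example, WT D0 C had a fold of 5.56 with a -log10 p of 26.7, against 6.40 with 17.7 in WT D0 B. Without WT D0 C, the exact p of the WT days in the window totals below was 0.0071 at Klf2, 0.0071 at Klf4 and 0.0357 at Klf5, and 5 tiles were higher and 1 lower at D2 against D0.

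Peaks of all lists were merged into 100 regions, 23 at Klf2, 37 at Klf4 and 40 at Klf5. Of these, a peak in at least 1 library was found at 25, 54 and 46 regions in KO at D0, D2 and D10, and at 44, 74 and 29 regions in WT at D0, D2 and D10. At Klf2, these were 9, 11 and 9 of 23 regions in KO and 13, 20 and 1 in WT. At Klf4, they were 13, 24 and 19 of 37 in KO and 18, 29 and 7 in WT. At Klf5, they were 3, 19 and 18 of 40 in KO and 13, 25 and 21 in WT. In WT the number was thus highest at D2 at each locus, and at D10 it lay below D0 at Klf2 and Klf4 but above D0 at Klf5. WT lists were also longest at D2 within each of A, B and C (161004, 132189 and 106093 peaks). No genome-wide share of these region counts was computed. Peaks in the windows were 0.0421%, 0.032% and 0.0323% of the WT A, B and C lists at D0. They were 0.0453%, 0.0507% and 0.0518% at D2 and 0.0243%, 0.0284% and 0.0163% at D10. In KO1 they were 0.036%, 0.0376% and 0.0427% at D0, D2 and D10, and in KO2 0.0196%, 0.0359% and 0.0359%.

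Region by region, gain was counted where 3 of 3 WT libraries had a peak on the later day and 0 of 3 on the earlier, and loss the other way round. At D2 against D0, 13 of the 100 regions were gained (2 at Klf2, 3 at Klf4, 8 at Klf5), against 6.6% of 360855 regions genome-wide, and 1 was lost, against 2.03%. At D10 against D2, 28 regions were lost (8 at Klf2, 12 at Klf4, 8 at Klf5), against 11.1% genome-wide, and 0 were gained, against 2.72%. At D10 against D0, 8 regions were lost (3 at Klf2, 5 at Klf4), against 7.18%, and 2 were gained, both at Klf5, against 5.23%. These counts carry no test, and without WT D10 C, the shortest pre-iPSC list, 5 were gained at D10 against D2 and 10 at D10 against D0. Without WT D0 C, 18 were gained and 2 lost at D2 against D0, and 18 were lost at D10 against D0.

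In KO at D10, 17 regions had a peak in both lines and in no WT library of that day (4 at Klf2, 8 at Klf4, 5 at Klf5), against 6.63% of regions genome-wide. The reverse, 3 WT peaks and none in either KO line, was seen at 0 of the 100 regions, against 3.11%, and at 6 without WT D10 C. Of the 28 regions lost at D10 against D2 in WT, both KO lines had a D10 peak at 16, 1 line at 4 and neither at 8. The same split over all regions lost genome-wide was not computed, so it is a description of these loci alone. With the strongest peaks alone, the 17 regions became 11. The longer KO lists at D10 move with these counts, and their part was not tested.

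**Figure D1:**
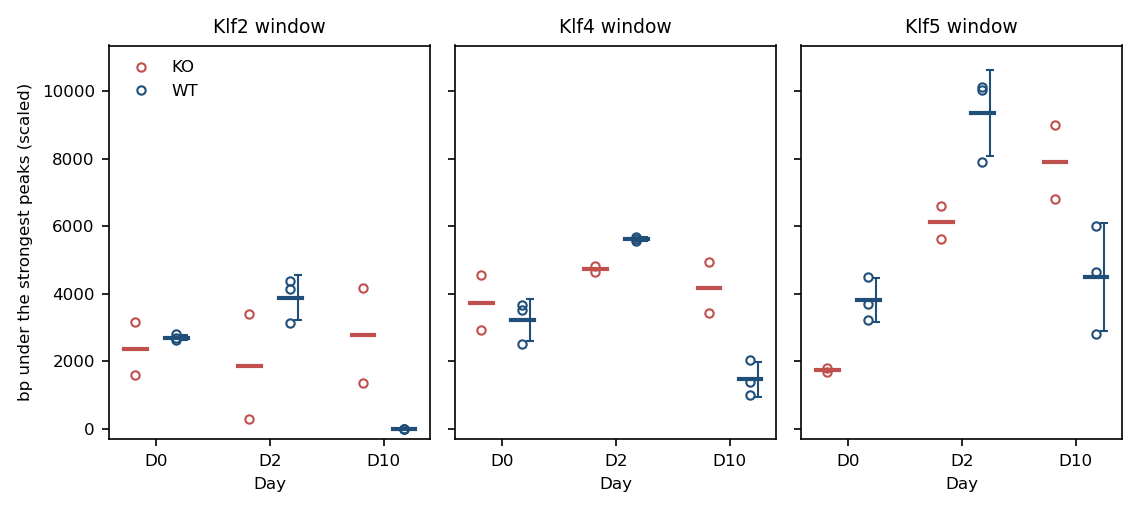
Base pairs under the strongest peaks (scaled, y axis) in each window by day (x axis), in KO (red) and WT (blue). Circles are libraries, bars are means, and whiskers are SD of the 3 WT libraries; all 3 WT libraries sit at 0 at D10 for Klf2, below both KO libraries at 4185 and 1361.

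Covered bp were next compared in 10 kb tiles with limma on log2(bp + 200), with Benjamini-Hochberg adjustment over all tiles tested. The windows span 22 tiles, of which 11 had enough coverage for the fit of the 9 WT libraries and 12 for the fit of all 15. At D2 against D0 in WT, 6 of the 11 tiles were higher and 1 lower at an adjusted p under 0.05, against 14.8% higher and 2.98% lower among 14776 tiles, and the median change was 1.21 in these tiles and 0.38 in all. At D10 against D2 in WT, 8 tiles were lower and 0 higher, against 33.2% lower and 13.8% higher in all, with medians of -1.91 and -0.60. At D10 against D0 in WT, 3 tiles were lower and 0 higher, against 27.1% and 22.7%, with medians of -0.74 and -0.18. The tiles had entered by a mean of at least 500 bp over the 9 libraries, and 6 of the 11 would fall under it without a single day, 5 without D2 and 1 without D0. Of the 6 tiles higher at D2 against D0, 5 had entered only through D2, the 1 lower tile only through D0, 4 of the 8 tiles lower at D10 against D2 only through D2, and 1 of the 3 lower at D10 against D0 only through D0. Such tiles had to differ, so these counts and medians are a description and support nothing. With no such minimum, 6 of 20 tiles were higher and 2 lower at D2 against D0 (3643 and 5624 of 92426 in all), and 7 of 20 were lower at D10 against D2 (8203 in all). In limma at an unadjusted p under 0.05, no further tile of the 11 passed in these 3 contrasts. Centred on the median tile of each library, 3 tiles were higher and 1 lower at D2 against D0 (1252 and 824 of 14776 in all). At D10 against D2, 5 were then lower and 0 higher (3482 and 2986 in all). Without WT D2 C, 3 tiles were called in each of these contrasts, and 3 or 4 without WT D2 B, where in both cases 9 tiles had enough coverage. Without WT D0 B 3 were called at D2 against D0, and without WT D2 A 4 at D10 against D2.

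KO against WT differed at D10 and passed the test at neither earlier day. At D10, 5 of 12 tiles were higher in KO and 0 lower, against 20.8% and 5.06% of 15744 tiles, with median differences of 1.16 in these tiles and 0.66 in all. None of the 5 would fall under the 500 bp minimum without the KO libraries of D10. With no minimum 4 of 21 tiles were higher in KO and 0 lower, against 3778 higher and 6206 lower of 103089 in all. The balance over all tiles was thus the other way round from that with the minimum. Of the 5, 4 had 0 bp in every WT library at D10, so their log2 differences depend on the 200 bp added and are no bound, nor are the medians. A group at 0 throughout also adds no spread to the fit. SE and p-values at such tiles, in the WT contrasts too, may therefore be too small. At D0, limma called 0 of the 12 in either direction, against 0.0381% higher and 0.0127% lower in all, and 3 had an unadjusted p under 0.05. At D2 it again called 0, against 0% higher and 0.0254% lower, with 2 at an unadjusted p under 0.05. Within KO, D10 against D2 gave 0 of 12 tiles, against 0% of all tiles, and 1 at an unadjusted p under 0.05. The test of the difference itself, the D10 minus D2 change in KO less that in WT, called 4 tiles higher and 0 lower, against 9.49% and 1.68%, with medians of 1.97 and 0.75. Of these 4, the Klf4 tile starting at 55480001 had entered the fit only through WT D2. It had to be high at WT D2, so its call here supports nothing.

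Scaling mattered for the comparison at D10. Centred on the median tile of each library, the 5 tiles higher in KO became 2, the Klf2 tile starting at 74840001 and the Klf5 tile starting at 99730001. Genome-wide the split then was 1522 tiles higher and 1530 lower in KO, against 3276 and 797 before. Without KO1 at D10 the 5 tiles became 2, and without WT D10 A they became 3, while the 4 tiles of the interaction became 2 without WT D2 B.

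**Figure D2:**
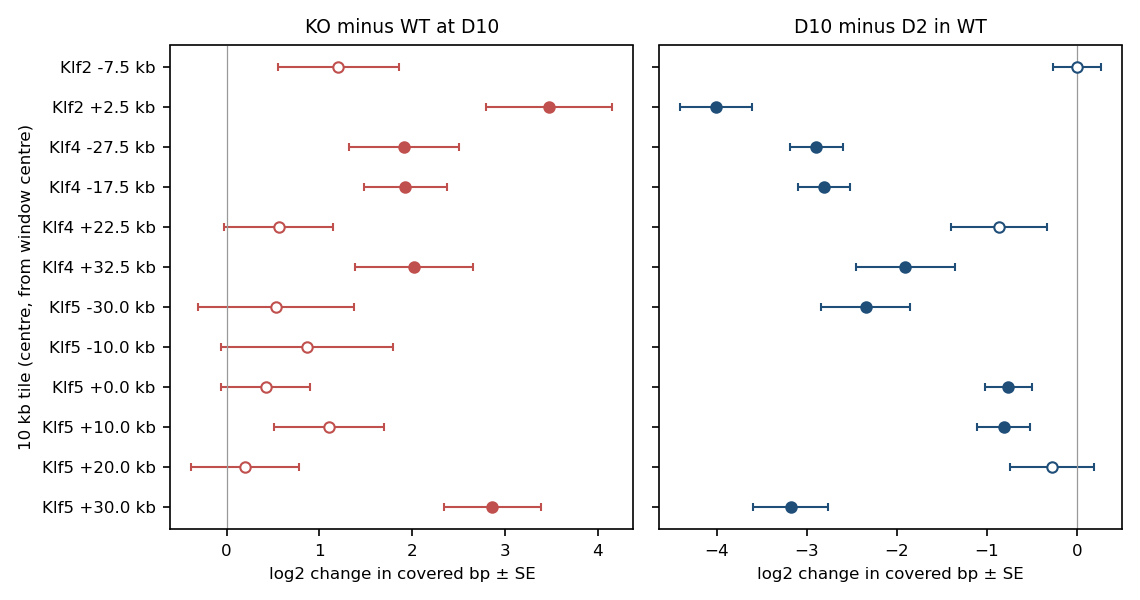
Log2 change in covered bp with its SE (x axes) for the tiles tested at the 3 loci (y axis, distance of the tile centre from the window centre), for KO minus WT at D10 (left) and D10 minus D2 in WT (right). Filled points have an adjusted p under 0.05, and the Klf5 tile starting at 99690001 was tested only in the fit of 15 libraries; 5 points on the left are filled and above 0, and 8 on the right are filled and below 0.

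At Klf2, the factor most tied to the naive state under 2i, the tile with the most bp under the strongest peaks differed between D0 and D2 in WT. No WT library had a strongest peak in the window at D10. Over the whole lists, 0 of the 23 Klf2 regions were lost at D2 against D0 in WT. The KO lines had 8, 9 and 10 peaks (KO1) and 5, 5 and 5 peaks (KO2) at D0, D2 and D10. The WT peak numbers in A, B and C were 10, 10 and 5 at D0, then 16, 15 and 12 at D2, and last 0, 1 and 0 at D10. The only WT peak at D10 was in replicate B, with the authors' fold enrichment of 3.30 over chr8:74847906-74848554.

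In scaled bp under the strongest peaks, the Klf2 window had 3160.1, 3414 and 4185 bp in KO1 and 1585, 289.6 and 1361 bp in KO2 at D0, D2 and D10. The WT libraries A, B and C had 2800.3, 2637 and 2679.8 bp at D0, 3143, 4144 and 4380.2 bp at D2, and 0 in each at D10. The WT means were 2706 ± 84.6, 3889 ± 657 and 0 ± 0 bp (SD, n = 3 each). No WT day overlapped another, and the days differed (exact permutation F test over 1680 assignments, p = 0.0036, the smallest it can give). The log2 differences were 0.48 at D2 against D0 and -4.34 at D10 against D2, and the second, set against libraries at 0, depends on the 200 bp added and is no bound. At D10 the KO lines exceeded all WT libraries, with a log2 difference of 3.71 (two-sided exact permutation p = 0.1, the smallest that 2 against 3 libraries allow). Within the run-name patterns, KO1 had 4185 bp against 0 in WT B, and KO2 had 1361 bp against 0 in WT C.

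**Figure D3:**
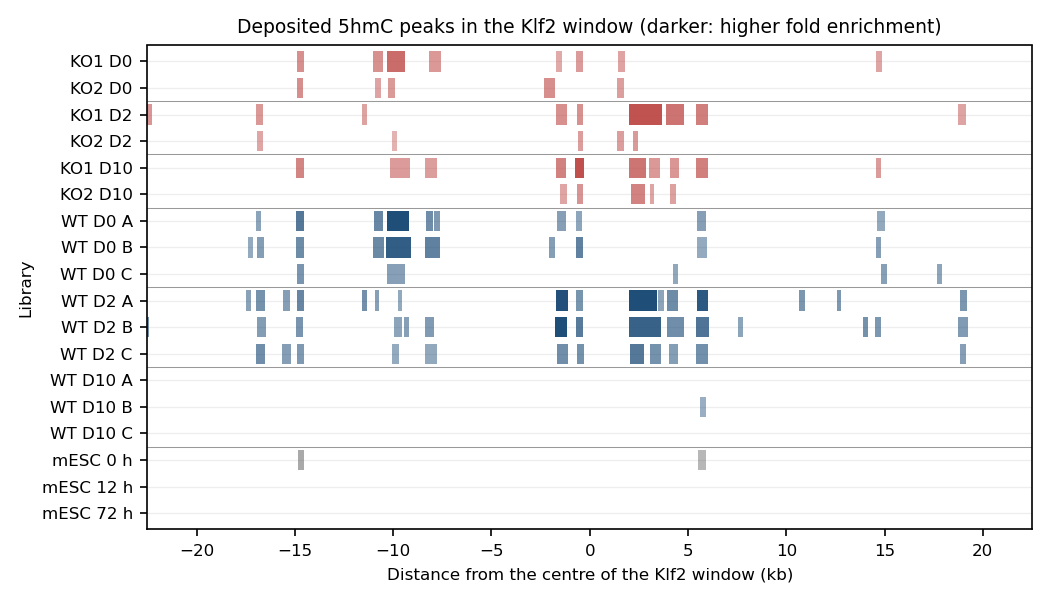
Deposited 5hmC peaks in the Klf2 window by library (rows), with distance from the window centre in kb (x axis), for KO (red), WT (blue) and mESC (grey). Each block is a peak, and a darker block has a higher fold enrichment. At D10 the KO lines hold 10 and 5 peaks and the WT libraries 0 or 1, after 12 to 16 in WT at D2.

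The tiles with the most bp under the strongest peaks at D0 and at D2 in WT were neighbours. In chr8:74830001-74840000, scaled bp at D0, D2 and D10 were 1873, 0 and 861.3 in KO1 and 691.5, 0 and 0 in KO2. WT libraries had 2382, 2029 and 1174 bp at D0 and 0 in every library at D2 and at D10. In limma the D2 value was lower than D0, with a log2 change of -3.26 (SE 0.27, adjusted p = 0.000255), or -5.13 and -1.45 with 50 and 1000 bp added in place of 200. The tile entered the fit of the 9 WT libraries only through D0 (mean 0.0 bp without it). It had to be high at D0, so this p-value supports nothing. With all deposited peaks unscaled, that call was lost (log2 change -0.78, adjusted p = 0.202), and WT libraries had 728, 1174 and 989 bp there at D2. The tile's main region, chr8:74832119-74833397, had folds of 12.4, 10.7 and 4.54 in WT at D0, of 3.70, 4.55 and 3.67 at D2, and no peak at D10. In KO it had folds of 9.36 and 5.23 at D0, a peak in KO2 alone at D2 (2.88) and in KO1 alone at D10 (5.11).

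In the next tile, chr8:74840001-74850000, the order was turned round. KO1 had 684.6, 3250.2 and 2989 bp at D0, D2 and D10, and KO2 had 562.7, 289.6 and 1361 bp. WT libraries A, B and C had 0, 293.8 and 347.3 bp at D0, 2823, 3553 and 3142 bp at D2, and 0 in each at D10. All WT libraries were thus high at D2 and low or at 0 on the other days, and both KO lines lay above WT at D10. In limma the tile was higher at D2 against D0 by 3.12 (SE 0.40, adjusted p = 0.00158) and lower at D10 against D2 by 4.01 on the log2 scale (change -4.01, SE 0.40, adjusted p = 7.33e-05). It entered the fit of the 9 WT libraries only through D2 (mean 106.9 bp without it). It had to be high at D2, so both of these p-values support nothing. KO was higher than WT at D10 by 3.48 (SE 0.68, adjusted p = 0.00232). Both differences against the 0 of WT D10 are set by the 200 bp added: with 50 and 1000 bp they were -5.94 and -2.01 for D10 against D2, and 5.37 and 1.62 for KO against WT. With all deposited peaks scaled, the D2 against D0 call was lost (log2 change 1.50, adjusted p = 0.079).

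The longest Klf2 region, chr8:74844487-74846263 in that tile, had no peak at D0 in any KO or WT library. It had folds of 11.9 and 5.20 in KO1 and KO2 at D2 and of 8.59 and 7.41 at D10. In WT it had folds of 14.7, 10.2 and 8.17 at D2 and no peak at D10. It was thus absent at D0 in both genotypes, present in all 5 libraries at D2, and present at D10 in both KO lines and in no WT library. The adjoining region chr8:74846361-74847303 had KO folds of 5.62 and 4.62 at D10 and WT folds of 6.39, 6.23 and 4.76 at D2, again with no WT peak at D10. Upstream in coordinates, chr8:74841736-74842193 had folds of 13.1 and 5.71 in KO at D10, 5.59, 7.92 and 5.87 in WT at D2 and none in WT at D10, and chr8:74840758-74841399 had 7.47 and 4.16, 11.8, 12.6 and 6.22, and none in the same order. These 4 regions are the Klf2 regions found in both KO lines and in no WT library at D10. The other Klf2 region gained at D2 in WT, chr8:74861248-74861732, had WT folds of 5.44, 5.03 and 4.63 at D2, and of the KO libraries only KO1 at D2 had a peak there (4.27). Region chr8:74843875-74844314 had peaks in KO alone, at D0 in both lines and at D2 in KO2. The remaining named regions, chr8:74825505-74826057, chr8:74827552-74827969, chr8:74831475-74832029, chr8:74847906-74848554 and chr8:74857036-74857617, had folds of 3.30 to 11.1 where they had a peak, and 11 regions fell outside the naming rule.

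At Klf4, whose window reaches over the enhancers downstream of the gene, WT cells gained bp at D2 and fell below D0 at D10. The KO lines had 10, 22 and 19 peaks (KO1) and 10, 16 and 16 peaks (KO2) at D0, D2 and D10. The WT peak numbers were 16, 17 and 7 at D0, then 29, 25 and 18 at D2, and last 4, 6 and 3 at D10. Every WT library at D10 thus had fewer peaks in the window than any other pre-iPSC library.

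In scaled bp, KO1 had 4559.7, 4643 and 4930.4 bp and KO2 had 2922, 4816 and 3430.0 bp at D0, D2 and D10. WT libraries A, B and C had 3509.6, 2528 and 3677 bp at D0, 5610.5, 5673 and 5556 bp at D2, and 995.8, 2030.2 and 1378 bp at D10. The WT means were 3238 ± 621, 5613 ± 58.9 and 1468 ± 523 bp (SD, n = 3 each). The days did not overlap and differed (exact permutation F test, p = 0.0036, the smallest it can give), with log2 differences of 0.77 at D2 against D0, -1.85 at D10 against D2 and -1.07 at D10 against D0. At D10 both KO lines lay above all WT libraries, by 1.42 on the log2 scale (two-sided exact permutation p = 0.1, the smallest possible). Within the run-name patterns, KO1 had 4930.4 bp against 2030.2 in WT B, and KO2 had 3430.0 bp against 1378 in WT C.

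**Figure D4:**
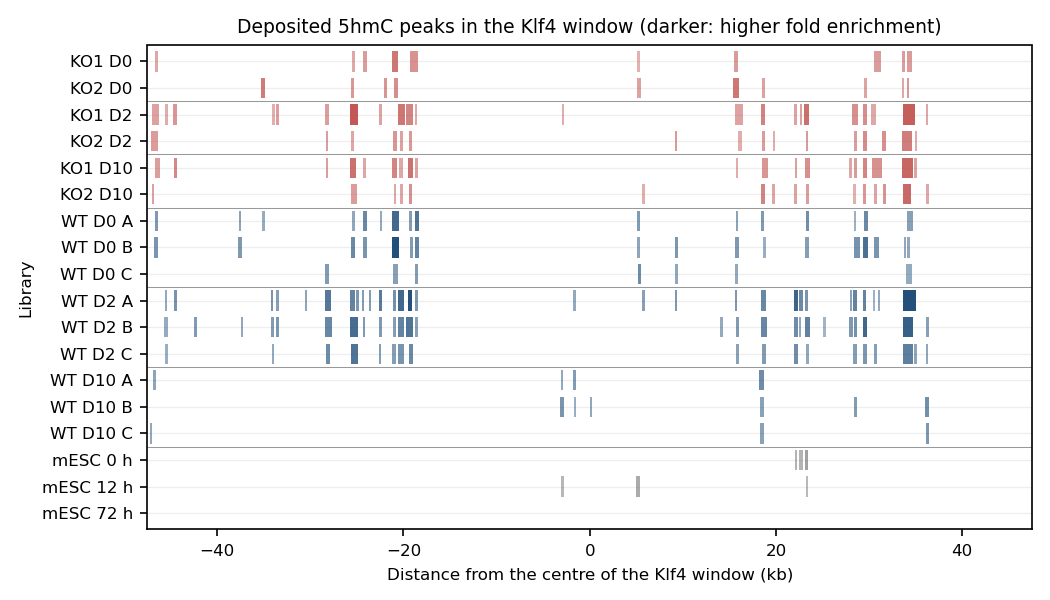
Deposited 5hmC peaks in the Klf4 window by library (rows), with distance from the window centre in kb (x axis), for KO (red), WT (blue) and mESC (grey), where darker blocks have a higher fold enrichment. The cluster of peaks in the left part of the map and the group of peaks at its right are present in KO at D10, while WT libraries hold 3 to 6 peaks in the whole window at D10.

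The loss in WT was clearest in a cluster of peaks across a pair of neighbouring tiles, in the coordinate-low part of the window. In chr4:55480001-55490000, KO1 had 732.7, 685.0 and 493.0 bp and KO2 had 364.4, 0 and 612.6 bp at D0, D2 and D10. WT libraries had 549.5, 321.1 and 542.1 bp at D0, 1269, 1440.3 and 1331 bp at D2, and 0 in each at D10. The WT change was 1.21 at D2 against D0 (SE 0.30, limma adjusted p = 0.0221) and -2.89 at D10 against D2 (SE 0.30, adjusted p = 7.39e-05). The tile entered the fit of the 9 WT libraries only through D2 (mean 235.5 bp without it). It had to be high at D2, so both of these p-values support nothing. KO was higher than WT at D10 by 1.91 (SE 0.59, adjusted p = 0.0280), a call lost when any single library of that day was left out. With 50 and 1000 bp added in place of 200, the differences against the 0 of WT D10 were -4.74 and -1.19 for D10 against D2, and 3.58 and 0.63 for KO against WT, the last no longer called (adjusted p = 0.0571). The D2 against D0 call was lost with all deposited peaks scaled (adjusted p = 0.165) and without WT D0 B (adjusted p = 0.0582).

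In chr4:55490001-55500000, KO1 had 1499.6, 1180.5 and 835.2 bp and KO2 had 742.3, 760.5 and 356.5 bp at D0, D2 and D10. WT libraries had 1146, 921.2 and 1220.1 bp at D0, 1079.6, 1212 and 1509.9 bp at D2, and 0 in each at D10. D0 and D2 overlapped in WT, and D10 lay below both. In limma the change was -2.81 against D2 (SE 0.29, adjusted p = 7.09e-05) and -2.63 against D0 (adjusted p = 8.59e-05). The 0 values of WT D10 add no spread to the fit, so the SE and p-values of this tile may be too small. KO was higher than WT at D10 by 1.92 (SE 0.45, adjusted p = 0.00625), and without KO1 at D10 by 1.46 (adjusted p = 0.072). With 50 and 1000 bp added, D10 against D2 gave -4.64 and -1.14, and KO against WT 3.58 and 0.66. Both regions that make up most of the tile, chr4:55491220-55492652 and chr4:55492724-55494116, had a peak in every WT library at D0 and D2, in both KO lines at D2 and D10, and in no WT library at D10. At the first, the folds were 7.20 and 4.20 in KO at D10 and 9.64, 7.11 and 5.69 in WT at D2, and at the second they were 8.78 and 6.12 in KO at D10 and 11.7, 8.50 and 6.59 in WT at D2.

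In the coordinate-high part, the Klf4 region longest in bp was chr4:55545998-55547646. It had folds of 5.11 and 5.27 in KO at D0, then 10.6 and 7.78 at D2, and last 9.99 and 9.69 at D10. In WT it had folds of 4.51, 3.84 and 3.57 at D0, 11.8, 10.3 and 7.46 at D2, and no peak at D10. It was thus present in all KO libraries and in all WT libraries but those of D10. Its tile, chr4:55540001-55550000, had 1526, 1789 and 2320.2 bp in KO1 and 298.0, 2384 and 1679 bp in KO2 at D0, D2 and D10. WT libraries had 444.7, 971.2 and 786.9 bp at D0, 2034, 1669 and 1846 bp at D2, and 0, 861.8 and 521.2 bp at D10. D10 was lower than D2 in WT by the test (log2 change -1.91, SE 0.55, limma adjusted p = 0.0183), and KO was higher than WT at D10 (2.02, SE 0.64, adjusted p = 0.0295). Without WT D10 A, the only WT library at 0 there, that difference was 1.32 (limma adjusted p = 0.0956), and it was 1.80 without KO1 (adjusted p = 0.170) and 2.24 without KO2 (adjusted p = 0.0596). The D10 against D2 call was lost without WT D2 A (adjusted p = 0.0563) or WT D2 C (adjusted p = 0.0530).

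Not all of Klf4 followed this course. Region chr4:55530729-55531604 was the only Klf4 region that every WT library still held at D10, with folds of 6.33, 4.38 and 4.33, beside 5.62 and 7.22 in KO at D10. Its tile, chr4:55530001-55540000, was higher at D2 than at D0 in WT (2.01, SE 0.53, limma adjusted p = 0.0301), with 1228, 1352 and 868.6 bp at D2 and 635.2, 0 and 0 bp at D0. The tile entered the fit of the 9 WT libraries only through D2 (mean 371.1 bp without it). It had to be high at D2, so this p-value supports nothing. At D10 the tile had 971.7 and 781.8 bp in KO and 606.0, 447.6 and 537.8 bp in WT, and D10 against D2 in WT gave -0.87 (adjusted p = 0.204). That D2 call was lost in 9 of the alternatives tried, among them the leaving out of any WT library of D2. Region chr4:55517511-55517992 was the only one of the 100 lost at D2 in WT, with folds of 3.02 and 4.47 in KO at D0 and 4.95, 4.04 and 6.27 in WT at D0. None of the KO or WT libraries had a peak there at D2 or D10.

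The 3 Klf4 regions gained at D2 in WT were chr4:55466826-55467198, chr4:55478221-55478652 and chr4:55534431-55534871, with WT folds of 3.27 to 9.93 at D2. The third of these had folds of 4.68 and 4.38 in KO at D10, while the other two had a KO peak in KO1 at D2 alone. Region chr4:55527938-55528942 had a peak in all KO and WT libraries of D0 and D2, in KO1 alone at D10 and in no WT library at D10. The other 8 named Klf4 regions lay at chr4:55465293-55466331, chr4:55484022-55484866, chr4:55486732-55487711, chr4:55489818-55490200, chr4:55535562-55536171, chr4:55540394-55541573, chr4:55541821-55542418 and chr4:55542669-55543859. Of these 8, chr4:55486732-55487711 had the highest fold, 11.2 in KO1 at D2. The remaining 20 Klf4 regions were outside the naming rule.

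At D2 Klf5 held the highest fold of the 3 loci in every KO and WT library, and at D10 WT libraries had more peaks there than at Klf2 or Klf4. The KO lines had 4, 21 and 19 peaks (KO1) and 2, 20 and 19 peaks (KO2) at D0, D2 and D10. The WT peak numbers were 13, 10 and 8 at D0, then 28, 27 and 25 at D2, and last 17, 15 and 6 at D10. At D2 the strongest Klf5 peak ranked 531 and 354 in the KO1 and KO2 lists by -log10 p, and 76, 38 and 67 in the WT lists.

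In scaled bp, KO1 had 1805, 5622 and 8996 bp and KO2 had 1695, 6598 and 6817 bp at D0, D2 and D10. WT libraries A, B and C had 4509, 3222 and 3701 bp at D0, 7897, 10039.7 and 10132.5 bp at D2, and 4658.5, 6004 and 2812.5 bp at D10. The WT means were 3811 ± 651, 9356 ± 1265 and 4492 ± 1602 bp (SD, n = 3 each). In WT, D2 lay above both other days, and D10 overlapped D0. The days differed (exact permutation F test, p = 0.0214), with log2 differences of 1.26 at D2 against D0, -1.08 at D10 against D2 and 0.18 at D10 against D0. Without WT D2 B or without WT D2 C the p was 0.0607. Both KO lines lay below all WT libraries at D0 and at D2 and above them at D10, where the log2 difference was 0.84 (two-sided exact permutation p = 0.2, where 0.1 is the smallest possible). Within the run-name patterns at D10, KO1 had 8996 bp against 6004 in WT B, and KO2 had 6817 bp against 2812.5 in WT C.

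**Figure D5:**
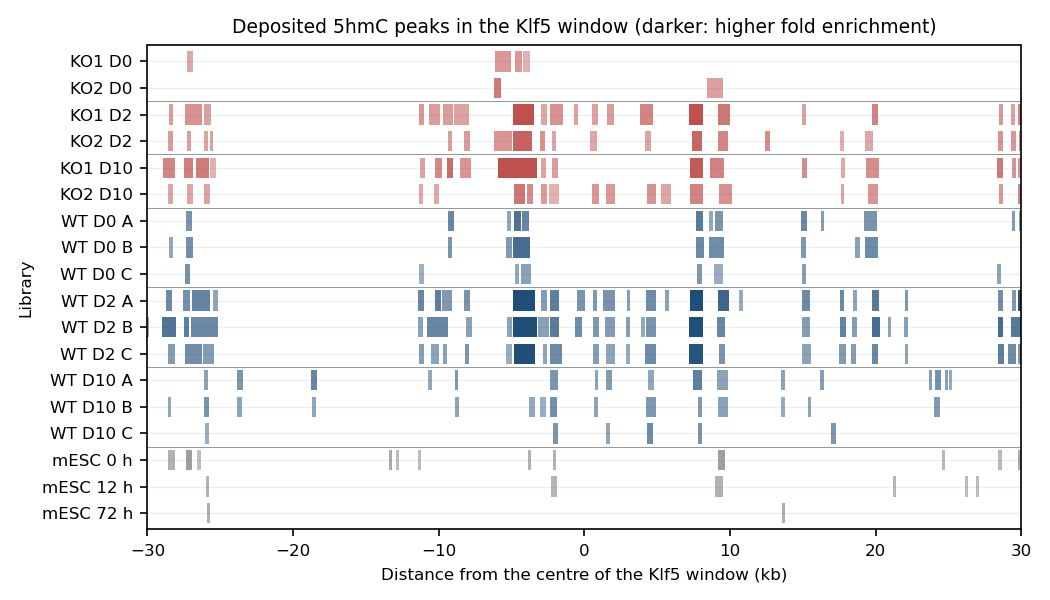
Deposited 5hmC peaks in the Klf5 window by library (rows), with distance from the window centre in kb (x axis), for KO (red), WT (blue) and mESC (grey), where darker blocks have a higher fold enrichment. At D10 the KO lines hold 19 peaks each and the WT libraries 6 to 17, after 25 to 28 in WT at D2.

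The strongest Klf5 region was chr14:99698762-99701749, 2988 bp long. In KO1 and KO2 it had folds of 5.42 and 8.08 at D0, then 12.4 and 10.4 at D2, and last 16.1 and 8.55 at D10. In WT it had folds of 8.64, 9.09 and 4.43 at D0 and 16.6, 17.5 and 13.8 at D2, and at D10 a peak in replicate B alone (3.83). It had the highest fold of the 100 regions in each KO and WT library at D2, and it kept a peak at D10 in both KO lines and in 1 of 3 WT libraries.

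The tile chr14:99700001-99710000 overlaps the last part of this region, whose peaks give the bp of the tile in WT at D0, and holds further regions with no WT peak at D0. KO1 had 417.2, 2553 and 1468 bp and KO2 had 0, 1804 and 3468 bp at D0, D2 and D10. WT libraries had 994.1, 925.9 and 1274 bp at D0, 2554.5, 2963 and 3361 bp at D2, and 1199, 2296 and 1609 bp at D10. D2 lay above both other days in WT, with a change of 1.32 against D0 (SE 0.26, limma adjusted p = 0.00915) and of -0.76 at D10 against D2 (SE 0.26, adjusted p = 0.0364). That second call was lost after centring on the median tile (-0.31, adjusted p = 0.392) and without WT D2 A, D2 B, D2 C, D10 A or D10 C (adjusted p of 0.0524 to 0.114). KO minus WT at D10 was 0.42 (adjusted p = 0.543).

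Of the 8 Klf5 regions gained at D2 in WT, 5 lay in a run in this tile: chr14:99701851-99703508, chr14:99705419-99705998, chr14:99706258-99707125, chr14:99707888-99708166 and chr14:99708833-99709945. None of the 5 had a peak at D0 in KO or WT. The first and last were the only regions of the 100 gained at D10 against D0 in WT. The first had folds of 4.70 and 5.13 in KO at D10 and 5.44, 6.03 and 5.56 in WT at D10. The last had a D10 peak in KO2 alone among the KO lines (5.90) and folds of 3.98, 5.31 and 6.38 in WT. Neither had a peak over at least 50% of its length in all 3 WT libraries at D10. The other 3 regions gained at D2 were chr14:99696081-99697283, chr14:99722469-99722943 and chr14:99726912-99727247, with WT folds of 4.24 to 7.18 at D2.

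Region chr14:99712184-99713241 had a peak in all 9 WT libraries, with folds of 7.85, 6.53 and 5.18 at D0, then 14.1, 13.2 and 11.5 at D2, and last 7.43, 5.05 and 5.70 at D10. In KO it had no peak at D0, and folds of 12.3 and 9.99 at D2 and 11.1 and 7.22 at D10. Its tile, chr14:99710001-99720000, had 0 and 1158 bp in KO at D0 against 1115, 1225 and 1291 bp in WT. The KO minus WT difference at D0 was -1.43 and did not pass the test (limma adjusted p = 0.586). At D10 against D2 in WT the tile was lower by the test (-0.81, SE 0.29, adjusted p = 0.0440), but the change was 0.022 with all deposited peaks scaled (adjusted p = 0.967). That call was also lost without any 1 of 7 WT libraries, all but WT D0 C and WT D10 B (adjusted p of 0.0575 to 0.111).

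At D0 the tiles with an unadjusted p under 0.05 between KO and WT were all at Klf5. They were the tile above and those starting at 99700001 (-1.84, limma adjusted p = 0.225) and 99720001 (-2.10, adjusted p = 0.276). The last had 0 bp in both KO lines at D0 against 1279, 691.5 and 281.9 bp in WT. The same tile carried the only unadjusted p under 0.05 at D10 against D2 in KO, with 970.1 and 951.1 bp at D10 and 317.0 and 0 bp at D2 (1.85, adjusted p = 1). At D2 the tiles with an unadjusted p under 0.05 between KO and WT were again this tile (-1.93, limma adjusted p = 0.424) and the Klf4 tile starting at 55480001 (-1.88, adjusted p = 0.446). The tile starting at 99690001 had 2183 and 0 bp in KO and 325.5, 312.8 and 0 bp in WT at D10, and that difference did not pass the test (0.87, limma adjusted p = 0.512).

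At the coordinate-high edge, chr14:99730001-99740000 reaches past the window and held the Klf5 difference between KO and WT at D10. KO1 had 371.9, 778.1 and 1113 bp and KO2 had 759.0, 1065 and 1410.3 bp at D0, D2 and D10. WT libraries had 264.7, 0 and 401.1 bp at D0, 1214, 2051 and 1898 bp at D2, and 0 in each at D10. WT was high at D2 alone, while both KO lines were highest at D10. The WT changes were 2.27 at D2 against D0 (SE 0.42, adjusted p = 0.00668) and -3.18 at D10 against D2 (SE 0.42, adjusted p = 0.000293), and KO was higher than WT at D10 by 2.86 (SE 0.52, adjusted p = 0.00146). The tile entered the fit of the 9 WT libraries only through D2 (mean 111.0 bp without it). It had to be high at D2, so the p-values of both WT changes support nothing. With 50 and 1000 bp added, D10 against D2 gave -5.05 and -1.39, and KO against WT 4.70 and 1.17. Both named regions in it, chr14:99733297-99733787 and chr14:99734087-99735909, had a peak in both KO lines at D2 and D10, in all WT libraries at D2 and in none at D10. Outside the naming rule, chr14:99730035-99730270 in this tile had a peak in WT D10 A alone (fold 3.66), not among its strongest peaks. Further regions of the tile, chr14:99731159-99731356 and chr14:99731896-99732109, had a peak in mESC at 12 hours alone. At chr14:99734087-99735909, the folds were 5.80 and 6.66 in KO at D10 and 11.5, 8.08 and 6.40 in WT at D2. With all deposited peaks scaled, the D2 against D0 call was lost (adjusted p = 0.116).

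At the coordinate-low edge, the tile chr14:99670001-99680000 had 1965 and 0 bp in KO at D10 and 0, 657.8 and 351.0 bp in WT at D10. At D2 it had 911.2 and 396.0 bp in KO and 1484, 2741 and 2460.1 bp in WT, and WT libraries had 433.0, 379.0 and 453.7 bp at D0. The WT changes were 1.91 at D2 against D0 (SE 0.49, limma adjusted p = 0.0283) and -2.34 at D10 against D2 (SE 0.49, adjusted p = 0.00417). The first call was lost without WT D0 A, WT D0 B, WT D2 B or WT D2 C. The tile entered the fit of the 9 WT libraries only through D2 (mean 379.1 bp without it). It had to be high at D2, so the p-values of both WT changes support nothing. Region chr14:99677464-99679836 in this tile had a peak in 17 of the 18 lists, the most of any of the 100 regions, with KO2 at D0 the exception. Its folds were 7.98 and 4.38 in KO at D10, 4.29, 5.58 and 3.32 in WT at D10, and 6.29, 4.10 and 4.40 in mESC at 0, 12 and 72 hours. Another 7 named Klf5 regions lay at chr14:99675996-99676953, chr14:99693558-99694041, chr14:99694216-99696035, chr14:99713391-99715105, chr14:99719887-99720583, chr14:99723340-99723905 and chr14:99724165-99725303. Of these 7, chr14:99713391-99715105 was in the most lists, 15, and 20 Klf5 regions were outside the naming rule.

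In mESC, the lists at 0, 12 and 72 hours had 2, 0 and 0 peaks at Klf2, 3, 3 and 0 at Klf4, and 12, 6 and 2 at Klf5. These lists are shorter than any pre-iPSC list, and levels were not compared with pre-iPSCs. The 17, 9 and 2 peaks in all were 0.0552%, 0.0268% and 0.00829% of these lists, against 0.0369% over all 18 lists. Of the 22 regions with a peak in any mESC list, 9 had one in a WT library at D10 and 13 in a WT library at D2. Of all 100 regions, 29 had a peak in a WT library at D10 and 74 in a WT library at D2. No genome-wide share of this overlap was computed. Among the 4 regions in at least 2 mESC lists, chr4:55535562-55536171 was the only one outside Klf5. The other 3 were chr14:99677464-99679836, chr14:99701851-99703508 and chr14:99713391-99715105.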

How the data were processed

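5hmC was captured chemically from sonicated genomic DNA and libraries were amplified over 14 PCR cycles, per the labels' protocols. The authors used Bowtie, SAMtools and MACS2 with mm9, per the submitters' processing notes, with versions not given in the sources used here. Each of 18 samples has its own deposited list. The run names of WT B and KO1 hold the word All on each day. The sources used here do not say whether reads were pooled for those lists. The tests count WT B and KO1 as separate libraries. The deposited lists give a score per peak, the authors' fold enrichment as a linear ratio, and -log10 of p and q, per the MACS2 layout. The run names in the deposited files give 0.0001 as the threshold of p. The mESC labels state that no peaks were called, yet their deposited lists have the same layout and were used. Read depth is unknown, so no interval or floor could be given, and an absent peak means only that none passed the threshold.

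In each pre-iPSC library the 55130 peaks highest by -log10 p (the length of the shortest list on chromosomes 1 to 19 and X) were laid on 10 kb tiles and scaled to the mean total. Tiles with a mean of at least 500 bp entered limma 3.58.1 in R 4.3.3 (trend, robust) on log2(bp + 200), with Benjamini-Hochberg adjustment over all tiles at 0.05. WT contrasts came from the 9 WT libraries and KO contrasts from all 15. The limma script was tested on simulated data. Window totals were tested by exact permutation, and regions are merged peaks of the 18 lists (Python 3.11.15, pandas 2.3.3, numpy 2.4.6). Peaks outside chromosomes 1 to 19 and X (149) were left out of the tile fits.

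The members, lists and tests were chosen with earlier results of these data known. Every tile tested in the windows is covered. Regions named have a peak in every library of a pre-iPSC group or in 2 of the 3 mESC lists. Other Klf genes were to be added only with an mm9 annotation and were not analysed here. By the titles, KO1 and KO2 recur on each day, and their deviations from group means correlated by 0.229 to 0.337 between days. The main fits had no replicate block, so their p-values leave this pairing out. With the block, an alternative, KO D10 against D2 called 0 tiles and the interaction 4 higher and 0 lower. Alternatives changed the peaks used, their scaling, the q threshold, the pseudocount, the filter, the tile size, the centring, the samples fitted, the replicate block and the replicates left out. Whether replicates were separate cultures is not stated in the labels, so each p-value reflects the spread of these samples alone, and that spread may be technical.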

Additional observations from a re-analysis of the deposited data

Results flagged for a closer look

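At 4 tiles the change between D2 and D10 differed between KO and WT by an interaction term in limma, the D10 minus D2 change in KO less that in WT. On the log2(bp + 200) scale the difference was 4.85 (SE 0.96, adjusted p = 0.00722) at the Klf2 tile starting at chr8:74840001. At the Klf4 tiles it was 3.78 (SE 0.84, adjusted p = 0.0122) at chr4:55480001, which had entered the fit only through WT D2, and 2.26 (SE 0.63, adjusted p = 0.0338) at chr4:55490001. At the Klf5 tile starting at chr14:99730001 it was 3.62 (SE 0.74, adjusted p = 0.00822). The tile at chr4:55480001 had to be high at WT D2, so its p-value supports nothing. The call at chr4:55490001 was lost without any of WT D2 A, B or C, WT D10 B or C, KO1 D10 or KO2 D2. Its limma adjusted p was then 0.0504 to 0.119. The calls at chr8:74840001 and chr14:99730001 held with each library left out in turn. The tile at chr4:55480001 fell under the coverage minimum without WT D2 B and was called otherwise, which adds no support. In each of the 4 tiles all 3 WT libraries held no strongest peak at D10, while both KO libraries did. These 0 values add no spread to the fit, so SE and p-values may be too small. The sizes depend on the 200 bp added for the same reason and are no bound. With 50 and 1000 bp they were 6.97 and 2.45 at chr8:74840001, 6.45 and 1.49 at chr4:55480001, 3.97 and 0.86 at chr4:55490001 (the last with an adjusted p = 0.0959 in limma), and 5.55 and 1.67 at chr14:99730001. Across all tiles tested the median of this difference was 0.75, and what moved it was not tested.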

How the results depend on the processing

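Of the 22 summary results, the Klf2 and Klf4 totals by day in WT kept their direction and their side of the threshold under every alternative. For Klf5, the D10 minus D0 difference was -0.17 with all deposited peaks unscaled and ranged over -0.056 to 0.47 when 1 library was left out, being below 0 without WT D10 B. The exact p of the Klf5 days was 0.0607 without WT D2 B or without WT D2 C and 0.0833 with the letters as a replicate block (difference 0.18). The letters did not pair the WT libraries (deviations correlated by -0.03 to 0.046 between days), and the block changed no count of called tiles by over 1.5 times.

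The KO minus WT difference at D10 moved most at Klf2, where WT is at 0: 5.61 and 1.81 with pseudocounts of 50 and 1000, and 2.95 to 4.46 with 1 library left out. With all deposited peaks unscaled it was 2.33 at Klf4 and 1.38 at Klf5.

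Called tiles at D2 against D0 in WT, 7 in the main analysis, were 3 with all deposited peaks scaled, 3 with -log10 q of at least 5, 4 after centring on the median tile, 4 in the fit of 15 libraries, and 3 to 8 with 1 library left out. The 8 of D10 against D2 became 5 after centring and 3 to 8 with 1 library left out. The 3 of D10 against D0 became 7 with all peaks scaled, 7 unscaled, 5 with the q threshold and 5 with 5 kb tiles. KO against WT at D0 gave 1 with all peaks scaled. KO against WT at D10 gave 2 after centring and 2 to 6 with 1 library left out, and the interaction gave 2 to 6 with 1 left out. At the Klf5 tile starting at chr14:99710001, the change at D10 against D2 in WT was 0.022 with all peaks scaled and 0.26 with the q threshold, against -0.81. No tile of the 3 loci passed a minimum mean of 2000 bp, so that alternative gave no value.

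With the strongest peaks, regions gained at D2 against D0 were 8 and lost 2, lost at D10 against D2 were 16, gained at D10 against D0 was 1 and lost 5, and those in KO and not WT at D10 were 11. With a peak over at least 50% of the region, 0 were gained and 3 lost at D10 against D0. With 1 library left out, regions lost at D2 against D0 were 1 to 2, gained at D10 against D2 were 0 to 5, gained at D10 against D0 were 2 to 10, lost at D10 against D0 were 8 to 18, and those in WT and not KO at D10 were 0 to 6. The upper values of the D10 gains and of the regions in WT and not KO came without WT D10 C, the shortest pre-iPSC list. Leaving libraries out of the region counts, and both alternatives for regions in KO or WT alone, were added after seeing the data. Apart from what the alternatives change by construction, the cause of these shifts was not tested.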

Other observations

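Tiles elsewhere in the genome whose covered bp ran most like the best covered tile of each locus are given as a description over the 15 pre-iPSC libraries, among 15732 tiles outside the windows. All tiles share the same libraries and the same number of peaks. The Klf2 tile starting at chr8:74840001 ran most like chr13:53370001-53380000 (Pearson r = 0.96), chr5:30900001-30910000 (0.936) and chr15:102180001-102190000 (0.935). The Klf4 tile starting at chr4:55540001 ran most like chr10:68810001-68820000 (r = 0.937), chr5:147600001-147610000 (0.927) and chr4:43530001-43540000 (0.904). The Klf5 tile starting at chr14:99700001 ran most like chr19:5640001-5650000 (r = 0.934), chr2:127970001-127980000 (0.933) and chr13:95040001-95050000 (0.918).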
